A study of Homo sapiens with 9 samples.

Results

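The fibroblast growth factor (FGF) receptors and ligands were described in HK-2 cells as 8 genes named by symbol: the receptor kinase genes FGFR1, FGFR2, FGFR3 and FGFR4, the kinase-less receptor gene FGFRL1, and the ligand genes FGF1, FGF2 and FGF5. Each symbol matched 1 of the 58884 gene identifiers, and 7 of the 8 genes passed the filter for testing, which asked for at least 0.5 FPKM, the fragments assigned to a gene scaled by its length and by library depth, in at least 3 of 9 libraries. FGF1 did not pass. HK-2 is an immortalised cell line from human kidney proximal tubule epithelium, grown here in a serum-free keratinocyte medium with bovine pituitary extract and recombinant human EGF, so all 3 groups received a growth factor. Each group had 3 libraries. The first group was given lactoferrin, an iron-binding glycoprotein of milk, for 6 h and then fine airborne particulate matter (PM2.5) for 18 h. The second was given PM2.5 for 24 h. The third was the control, labelled untreated although the treatment protocol speaks of a vehicle. For the pretreated cells the series text gives lactoferrin at 40 mg/ml and PM2.5 at 1 mg/ml, units that could not be checked, with no separate dose for PM2.5 alone. No lactoferrin-only group was analysed here, so pretreatment and the shorter time in PM2.5 cannot be told apart. The labels do not say that replicates were separate cultures, so p-values measure only the spread between these libraries, which may be technical.

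FGF ligands bind receptor kinases together with heparan sulfate chains, or with a Klotho co-receptor for the hormone-like ligands, and the paired receptors signal through the adaptor FRS2 to RAS and ERK. ERK activity in turn raises ETS transcription factors and feedback inhibitors such as DUSP6 and the Sprouty proteins. FGFR2 exists in epithelial and mesenchymal splice forms that differ in the ligands they bind, and in mice it is required for branching of the ureteric bud, the source of the collecting system of the kidney.

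The libraries held 15313451 to 18820465 reads or fragments assigned to genes, as recovered from the FPKM steps. Of 20 proximal tubule markers, 13 stayed below 1 FPKM in every library. Markers that were measured included DPP4 (36.8 to 42.0 FPKM as group means) and PAX8 (52.2 to 82.3 FPKM), and the summed level of the list was 128 to 161 FPKM after lactoferrin plus PM2.5, 155 to 164 FPKM after PM2.5 and 164 to 186 FPKM in control. Of 12 fibroblast, endothelial and immune markers, 9 stayed below 1 FPKM in every library, and the summed level was 51.0 to 55.2, 66.2 to 68.2 and 48.2 to 54.4 FPKM in the same groups, most of it LUM, a matrix proteoglycan gene. Of the 3 tested markers of that list, LUM and DCN were higher after PM2.5 than in control (limma adjusted p = 0.00133 and 0.0188). COL1A1, a fibrillar collagen gene, was lower, with 1.14 ± 0.203 FPKM after lactoferrin plus PM2.5, 1.42 ± 0.0853 FPKM after PM2.5 and 6.77 ± 1.04 FPKM in control (SD, n = 3 each; limma adjusted p = 1.23e-05 for PM2.5 over control). Of the 8 tested proximal tubule markers, 2 were higher and 4 lower after PM2.5. Among all tested genes 18.8% were called higher and 16.3% lower in the same contrast, 35.1% together. The part of these markers in the results was not tested. Lactoferrin plus PM2.5 replicate 1 and control replicate 3 lay farthest from their own replicates, with root mean square log2 distances of 0.383 and 0.385, against 0.279 to 0.356 in the other 7 libraries. Replicate 1 was the lowest of the lactoferrin plus PM2.5 libraries for 6 of the 8 genes, so values without it are given where it matters.

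The promoter windows of FGFR2, FGFR3 and FGFR4 are shown. The first and second are the receptor kinase genes that were lower in exposed cells, and the third is one that was not. FGFR1, the other receptor kinase gene, had no window among the sequences used here. Each window runs over 300 bases, 250 before and 50 after the first listed transcript start, 5′ to 3′ on the gene's strand, from RefSeq (GRCh38.p14), and capitals mark every GC box (GGGCGG or its reverse complement). Overlapping boxes were counted separately. FGFR2 lies at chr10:121598395-121598694 (minus strand), FGFR3 at chr4:1793043-1793342 (plus strand) and FGFR4 at chr5:177086665-177086964 (plus strand).
FGFR2: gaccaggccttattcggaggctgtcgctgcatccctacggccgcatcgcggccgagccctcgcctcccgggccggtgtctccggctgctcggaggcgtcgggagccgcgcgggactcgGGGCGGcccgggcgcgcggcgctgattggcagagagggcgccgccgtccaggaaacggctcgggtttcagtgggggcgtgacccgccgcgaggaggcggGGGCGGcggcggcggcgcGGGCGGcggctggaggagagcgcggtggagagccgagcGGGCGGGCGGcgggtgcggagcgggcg
FGFR3: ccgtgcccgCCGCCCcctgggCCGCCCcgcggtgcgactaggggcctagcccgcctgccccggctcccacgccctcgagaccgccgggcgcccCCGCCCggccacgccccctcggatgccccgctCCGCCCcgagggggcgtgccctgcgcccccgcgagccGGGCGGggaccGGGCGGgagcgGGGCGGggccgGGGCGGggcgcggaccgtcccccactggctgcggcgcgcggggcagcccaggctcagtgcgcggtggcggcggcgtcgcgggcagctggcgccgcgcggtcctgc
FGFR4: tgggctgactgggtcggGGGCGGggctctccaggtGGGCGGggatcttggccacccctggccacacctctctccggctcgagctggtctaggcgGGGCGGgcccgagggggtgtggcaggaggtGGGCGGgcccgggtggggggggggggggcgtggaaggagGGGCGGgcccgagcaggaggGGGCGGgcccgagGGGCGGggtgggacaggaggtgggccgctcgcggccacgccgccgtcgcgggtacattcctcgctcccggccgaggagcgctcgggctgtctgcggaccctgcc

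The GC content was 79.3% in FGFR2, 86.3% in FGFR3 and 78.7% in FGFR4, against a median of 58.7% over 35114 promoter windows of the same length. FGFR2 held 52 CpG dinucleotides, FGFR3 51 and FGFR4 30, against a median of 14. The GC box count was 5 in FGFR2, 8 in FGFR3 and 7 in FGFR4, and 45.0% of all windows held at least 1. The core of the xenobiotic response element (GCGTG, either strand) occurred once in FGFR2, with 3 matches in FGFR3 and 2 in FGFR4, and in 36.5% of all windows. None of these 3 windows held the AP-1 motif TGACTCA, which 4.95% of windows held, the antioxidant response element TGACNNNGC (13.4%) or the cyclic AMP response element TGACGTCA (1.85%). RefSeq lists 5 start sites for FGFR2, and the FPKM values do not say which were used. The windows of the other 4 had a GC content of 47.3% to 50.7%, below the median of all windows, with 5 to 8 CpG dinucleotides, at most 1 GC box and 0 matches to GCGTG. FGFR4 also has another listed start site, with its window at chr5:177089300-177089599, and which was used is again not known. That window had a GC content of 57.3%, 2 CpG dinucleotides, 0 GC boxes and 0 matches to GCGTG.

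The first comparison asked how PM2.5 changed the receptors and ligands. The 8 genes were selected on measured values, the FPKM differences between PM2.5 and control, so their values against control are a description with no test. FGFR2 lost most of its transcript, FGFR3 was lower as well, and the abundant receptor genes FGFR1, FGFR4 and FGFRL1 and the ligand genes FGF2 and FGF5 moved little. In 4 of the 8 genes every PM2.5 library lay below every control library, in 3 every PM2.5 library lay above, and 1 overlapped. Over all tested genes 22.7% were lower and 30.9% higher without overlap, 53.6% together. Here and below, overlap was judged on FPKM as deposited. The log2 differences were taken after a scaling factor per library (0.938 to 1.03) was divided out, so narrow gaps may close after scaling. On the scaled values 7311 of all tested genes had a positive and 7143 a negative log2 difference. FGF1, 1 of the 4 lower genes, is not among the tested genes, and FGFR2, another of the 4, passed the filter only through control. RNA was taken from whole cultures, so fewer cells with a transcript and less of it per cell cannot be told apart.

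FGFR2 (ENSG00000066468, GRCh38 chr10:121478334-121598458, minus strand) encodes a receptor that epithelial cells use for ligands made by neighbouring mesenchyme. Its FPKM values were 0.252, 0.246 and 0.403 after lactoferrin plus PM2.5, 0.340, 0.412 and 0.427 after PM2.5, and 4.86, 5.64 and 5.45 in control. All 6 exposed libraries were far below the 3 control libraries, and the groups did not come near each other. The means were 0.393 ± 0.0464 FPKM after PM2.5 and 5.32 ± 0.407 FPKM in control (SD, n = 3 each), and the control mean was 13.5 times the PM2.5 mean. In rebuilt reads the gene had 36, 32 and 48 after lactoferrin plus PM2.5, 48, 56 and 57 after PM2.5, and 564, 708 and 720 in control, so each low value still rests on at least 32 reads. The log2 difference of (FPKM + 0.5) for PM2.5 over control was -2.74 ± 0.12 (SE), which was number 13 from the lowest among 14454 genes. The gene was chosen on this contrast, so the rank is a description only, and it is given for the pseudocount of 0.5 alone. The difference was -3.50 with a pseudocount of 0.1, -2.21 with a pseudocount of 1 and -3.79 by limma-voom on the rebuilt reads. The added constant weighs on values below 1 FPKM. The gene passed the filter only through its control libraries. Its union exon length is 7578 bases over 27 annotated transcripts, and gene-level FPKM do not tell the epithelial from the mesenchymal form.

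FGFR3 (ENSG00000068078, GRCh38 chr4:1793293-1808872, plus strand), a receptor best known as a brake on bone growth, had 0.767, 1.38 and 1.42 FPKM after lactoferrin plus PM2.5, 1.35, 1.61 and 1.21 FPKM after PM2.5, and 3.52, 3.79 and 3.24 FPKM in control. All 6 exposed libraries were below all 3 control libraries. The mean was 1.39 ± 0.204 FPKM after PM2.5 and 3.51 ± 0.273 FPKM in control (SD, n = 3 each), and the log2 difference was -1.13 ± 0.16 (SE).

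FGFR1 (ENSG00000077782, GRCh38 chr8:38400215-38468834, minus strand), the most abundant receptor kinase gene of the family here and the main partner of Klotho for the hormone FGF23, had 11.7, 15.8 and 16.8 FPKM after lactoferrin plus PM2.5, 18.3, 19.2 and 18.8 FPKM after PM2.5, and 16.4, 17.7 and 17.7 FPKM in control. In deposited FPKM, before scaling, the PM2.5 libraries lay just above the control libraries. The log2 difference, after scaling, was 0.08 ± 0.12 (SE). FGFR4 (ENSG00000160867, GRCh38 chr5:177086886-177098144, plus strand), in liver the receptor for the bile acid signal FGF19, had 6.57, 9.17 and 8.55 FPKM after lactoferrin plus PM2.5, 9.03, 8.0 and 8.32 FPKM after PM2.5, and 7.67, 6.74 and 4.83 FPKM in control. The PM2.5 libraries were all above the control libraries. Control replicate 3 was the lowest: the log2 difference was 0.35 ± 0.15 (SE), and 0.21 without that library. FGFRL1 (ENSG00000127418, GRCh38 chr4:1009936-1026897, plus strand), which encodes a receptor that binds FGFs but has no kinase domain, had 17.5, 21.1 and 21.4 FPKM after lactoferrin plus PM2.5, 23.9, 22.3 and 22.2 FPKM after PM2.5, and 24.6, 25.2 and 27.9 FPKM in control. Its PM2.5 libraries were all slightly below control, with a log2 difference of -0.22 ± 0.10 (SE).

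**Figure D1:**
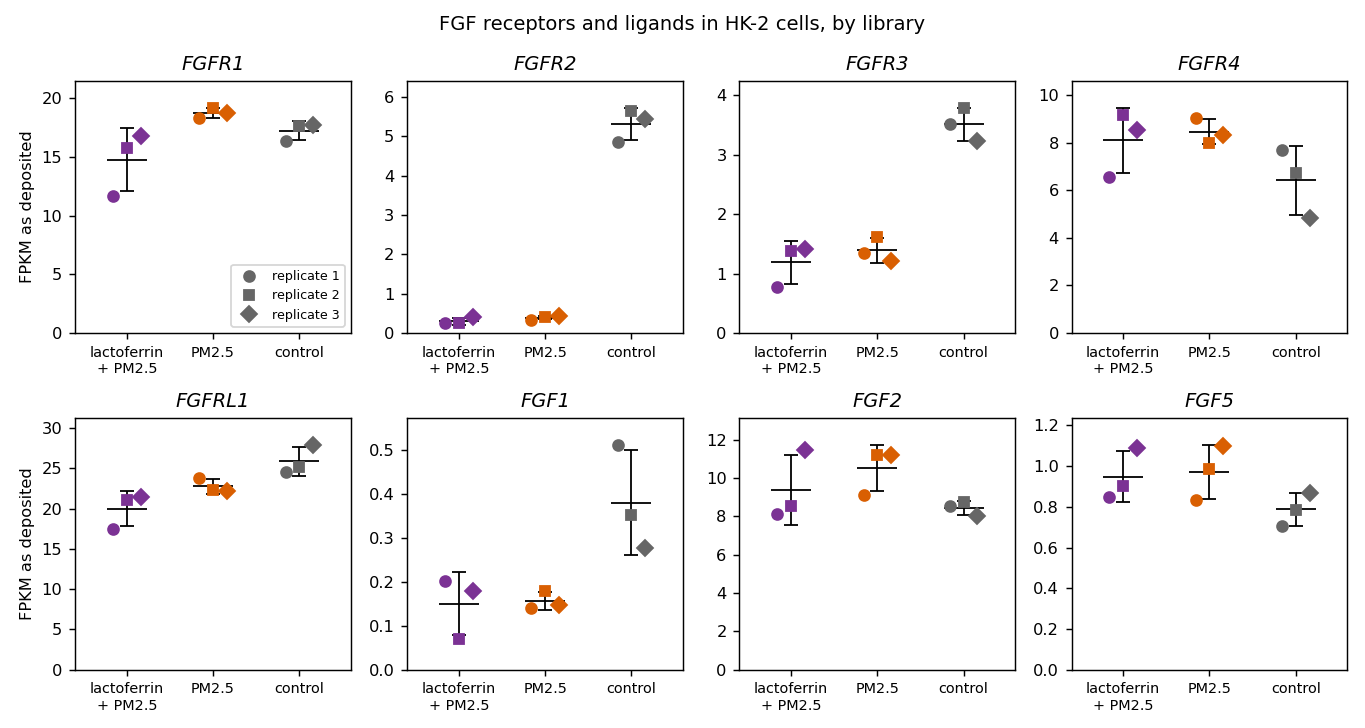
Deposited FPKM of each of the 8 genes in every library, with lactoferrin plus PM2.5, PM2.5 and control side by side. Points are libraries, marker shapes are replicate numbers, horizontal lines are group means and bars are ± SD (n = 3). FGFR2 lies at 0.246 to 0.427 FPKM in the 6 exposed libraries and at 4.86 to 5.64 FPKM in control.

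Since FPKM are scaled by length, the genes were ordered by FPKM within a group. The order depends on the annotated lengths, which may differ for FGF1, FGFR4 and FGFRL1. The union exon length is 13842 bases for FGFR1 and 4145 for FGFRL1. In rebuilt reads summed over control FGFR1 stood above FGFRL1 (11800 against 5306), the reverse of their order by FPKM. In control the order by mean was FGFRL1, FGFR1, FGF2, FGFR4, FGFR2, FGFR3, FGF5 and FGF1, and FGFR4 (4.83 to 7.67 FPKM) and FGFR2 (4.86 to 5.64 FPKM) overlapped. After PM2.5 FGFR2 stood below FGFR3 and FGF5 and above FGF1 alone, and no neighbours in the order overlapped. After lactoferrin plus PM2.5 the order was that of PM2.5, with overlap between FGF2 and FGFR4 and between FGFR3 and FGF5.

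The make-up of the receptor kinase transcripts shifted accordingly. FGFR2 made up 1.24 ± 0.286% of the summed FPKM of FGFR1 to FGFR4 after lactoferrin plus PM2.5, 1.36 ± 0.165% after PM2.5 and 16.4 ± 1.24% in control (SD, n = 3 each). FGFR3 made up 4.80 ± 0.712%, 4.79 ± 0.669% and 10.8 ± 0.415% in the same groups. The share of FGFR1 was 60.6 ± 1.20%, 64.7 ± 1.39% and 53.2 ± 3.25%, and that of FGFR4 was 33.4 ± 1.61%, 29.2 ± 1.83% and 19.7 ± 4.12%. The summed FPKM was 19.3, 26.6 and 27.1 after lactoferrin plus PM2.5, 29.1, 29.2 and 28.7 after PM2.5, and 32.4, 33.8 and 31.3 in control. The PM2.5 sums lay close together and all below the control sums. Shares of a common sum are not independent of each other.

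**Figure D2:**
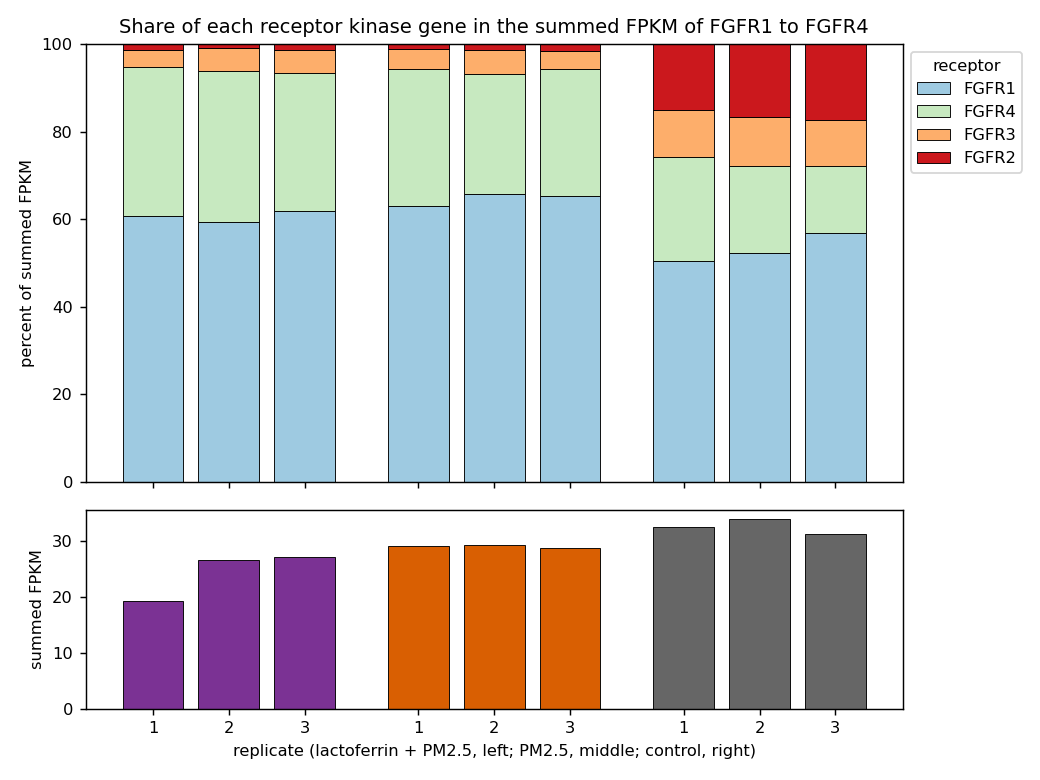
Stacked bars give the percent of the summed FPKM of FGFR1 to FGFR4 that each receptor kinase gene held in every library, for lactoferrin plus PM2.5, PM2.5 and control. The FGFR2 segment is 0.925% to 1.49% in the 6 exposed libraries and 15% to 17.4% in control.

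Of the ligands, FGF2 (ENSG00000138685, GRCh38 chr4:122826708-122898236, plus strand), a heparin-binding mitogen that leaves cells without a signal peptide, was the most abundant. It had 8.14, 8.52 and 11.4 FPKM after lactoferrin plus PM2.5, 9.12, 11.2 and 11.2 FPKM after PM2.5, and 8.54, 8.75 and 8.03 FPKM in control. All PM2.5 libraries were above control, with a log2 difference of 0.25 ± 0.12 (SE). NUDT6 lies on the opposite strand and shares 804 exon bases, 11.9% of the FGF2 exons. Its level was 0.152 to 0.386 FPKM, and the strand setting of the counting is not given in the sources used here. FGF5 (ENSG00000138675, GRCh38 chr4:80266599-80336680, plus strand), which ends the growth phase of hair follicles, had 0.850, 0.903 and 1.09 FPKM after lactoferrin plus PM2.5, 0.833, 0.985 and 1.10 FPKM after PM2.5, and 0.708, 0.785 and 0.870 FPKM in control. The PM2.5 and control libraries overlapped.

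FGF1 (ENSG00000113578, GRCh38 chr5:142592178-142698070, minus strand), which binds every FGF receptor kinase and also lacks a signal peptide, was low throughout and was not tested. It had 0.203, 0.0702 and 0.179 FPKM after lactoferrin plus PM2.5, 0.140, 0.179 and 0.148 FPKM after PM2.5, and 0.511, 0.352 and 0.276 FPKM in control. All 6 exposed libraries were below the 3 control libraries, and the ratio of means of PM2.5 over control was 0.410. All 15 other secreted FGF genes stayed below 1 FPKM in every library and none passed the filter, among them FGF7 and FGF10, mesenchymal ligands of the epithelial FGFR2 form, whose highest values were 0.0349 and 0 FPKM.

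The second comparison asked how lactoferrin pretreatment changed these genes relative to PM2.5 alone. This difference was not used to choose them, and it was tested in limma with Benjamini-Hochberg adjustment over all 14454 genes. FGFR2 was below the filter in all 6 of these libraries and entered the fit only through control, so its values are given with no p. None of the other 6 genes passed the test, against 0.0484% of all tested genes, 7 in number. At an unadjusted p under 0.05, 1 of the 6 would pass (FGFR1), as did 12.2% of all genes, and limma-voom on rebuilt reads called 0 of them. FGFR1 had the largest difference of the 6, -0.35 ± 0.12 on the log2 scale (95% interval -0.62 to -0.08, adjusted p = 0.365), and its lactoferrin plus PM2.5 libraries all lay below its PM2.5 libraries. The difference was -0.21 (adjusted p = 0.582) without lactoferrin plus PM2.5 replicate 1. FGFRL1 was the other gene whose groups did not overlap, again lower after lactoferrin plus PM2.5 (-0.19 ± 0.10, 95% interval -0.42 to 0.05, adjusted p = 0.460). Without the same replicate its difference was -0.11 (adjusted p = 0.912). Over all genes 9.79% were lower without overlap.

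FGFR2 was low in both exposed groups. Its mean was 0.30 ± 0.0886 FPKM after lactoferrin plus PM2.5 and 0.393 ± 0.0464 FPKM after PM2.5 (SD, n = 3 each), a log2 difference of -0.16 ± 0.12 (SE). FGFR3 differed by -0.18 ± 0.16 (95% interval -0.54 to 0.18, adjusted p = 0.600), FGFR4 by -0.07 ± 0.15 (95% interval -0.41 to 0.27, adjusted p = 0.848), FGF2 by -0.17 ± 0.12 (95% interval -0.44 to 0.10, adjusted p = 0.526) and FGF5 by -0.02 ± 0.12 (adjusted p = 0.945). The intervals given leave room for changes of either sign. Without lactoferrin plus PM2.5 replicate 1 the estimates of FGFR3 (0.00), FGFR4 (0.05) and FGF5 (0.02) were no longer negative, and that of FGF2 was -0.30 without replicate 3.

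Lactoferrin plus PM2.5 was also set against control, the contrast that shares its control libraries with that of PM2.5. The log2 differences over control were -2.90 for FGFR2, -1.31 for FGFR3, -0.28 for FGFR1, 0.29 for FGFR4, -0.41 for FGFRL1, 0.09 for FGF2 and 0.14 for FGF5. The value for FGFR2 was -3.82 with a pseudocount of 0.1, -2.31 with a pseudocount of 1 and -4.22 by limma-voom. Without lactoferrin plus PM2.5 replicate 1 the value was -0.14 for FGFR1, without control replicate 3 it was 0.14 for FGFR4, and without lactoferrin plus PM2.5 replicate 3 it was -0.04 for FGF2. All lactoferrin plus PM2.5 libraries lay below all control libraries for FGFR2, FGFR3, FGFRL1 and FGF1, and the other 4 genes overlapped. Of all tested genes, which leave out FGF1, 20.7% were lower without overlap. The test called 38.3% of all genes in this contrast. The FGFR2 mean in control was 17.7 times that after lactoferrin plus PM2.5.

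**Figure D3:**
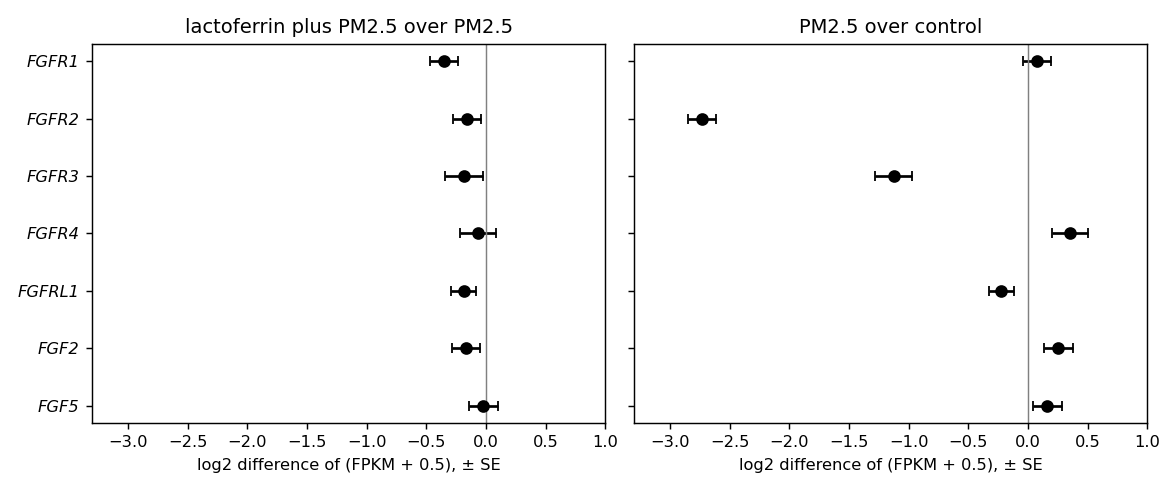
Log2 difference of (FPKM + 0.5) with its standard error for the 7 tested genes, for lactoferrin plus PM2.5 over PM2.5 on the left and PM2.5 over control on the right, on the same axis. FGFR2 and FGFR3 stand at -2.74 and -1.13 over control, and every estimate on the left lies between -0.35 and -0.02. On the left FGFR2 is shown with no test, since both of those groups lie below the filter.

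Genes that act with the receptors were counted for PM2.5 over control, where 35.1% of all tested genes passed the test (18.8% higher and 16.3% lower) and the median log2 difference was 0.01. Of 10 tested heparan sulfate core protein genes, 2 rose and 3 fell, with a median of -0.30. Core proteins of both the glypican and the syndecan kind were found in each direction. GPC1, a glypican, had 22.4 ± 1.72 FPKM after PM2.5 and 8.31 ± 0.713 FPKM in control (log2 difference 1.34 ± 0.15, adjusted p = 0.000232), and SDC1, the main epithelial syndecan, rose by 0.76 ± 0.13 (adjusted p = 0.0022). SDC2, a syndecan typical of mesenchymal cells, had 30.4 ± 2.83 FPKM after PM2.5 and 69.7 ± 1.90 FPKM in control (-1.23 ± 0.08, adjusted p = 1.08e-05), and GPC4 changed by -0.95 ± 0.15 (adjusted p = 0.00157). The adjusted p-values in this paragraph and the next 4 are from limma. With no filter on low values, which takes more genes into the adjustment, the calls given below for NDST1, FGF12, SOS1, SOS2, PTBP1, S100A13, FIBP and IGF1R were lost (adjusted p of 0.0506 to 0.121).

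Of 12 tested heparan sulfate enzyme genes, 4 rose and 4 fell (median 0.15). HS3ST3A1 and HS3ST3B1, which add a rare sulfate to the chain, rose by 0.83 ± 0.11 (adjusted p = 0.000514) and 0.79 ± 0.13 (adjusted p = 0.0016). EXT1, a subunit of the polymerase that builds the chain, had 14.2 ± 1.28 FPKM after PM2.5 and 31.3 ± 1.93 FPKM in control (-1.16 ± 0.11, adjusted p = 8.65e-05). NDST1, which starts sulfation, changed by -0.67 ± 0.20 (adjusted p = 0.0309), a call lost without any single control or PM2.5 library (adjusted p of 0.0580 to 0.0941). The counts for the enzymes were 2 higher and 2 lower without PM2.5 replicate 2, 2 and 3 without control replicate 1 or PM2.5 replicate 3, and 3 and 2 without control replicate 3 or PM2.5 replicate 1. They were 2 and 2 with no filter on low values.

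Of the Klotho and FGF-binding genes, KL and FGFBP1 were tested and neither passed. KL encodes the co-receptor through which the kidney senses FGF23, and was picked out after its values were seen. It had 5.61, 8.0 and 10.3 FPKM after lactoferrin plus PM2.5, 11.3, 12.1 and 12.1 FPKM after PM2.5, and 11.2, 11.1 and 10.3 FPKM in control. The lactoferrin plus PM2.5 libraries were all below the PM2.5 libraries and spread widely (log2 difference -0.58 ± 0.16, adjusted p = 0.305). Without lactoferrin plus PM2.5 replicate 1 the difference was -0.37 (adjusted p = 0.400). Of 4 intracellular FGF homologous factor genes, only FGF12 was tested, and it rose by 0.31 ± 0.11 (adjusted p = 0.0478), a call lost without any single control or PM2.5 library, or without lactoferrin plus PM2.5 replicate 2 or 3 (adjusted p of 0.0556 to 0.154). It was also lost with a stricter filter of 1 FPKM (adjusted p = 0.0553) and with only the 6 libraries compared (adjusted p = 0.0536).

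All 13 adaptor genes were tested, and 1 rose and 2 fell (median -0.03). The docking protein gene FRS2 had 4.41 ± 0.335 FPKM after PM2.5 and 4.78 ± 0.123 FPKM in control (log2 difference -0.15 ± 0.12, adjusted p = 0.382). SHC1, an adaptor shared by many receptor kinases, rose by 0.49 ± 0.08 (adjusted p = 0.00157). SOS1 and SOS2, which load RAS with GTP, changed by -0.76 ± 0.21 (adjusted p = 0.0186) and -0.48 ± 0.16 (adjusted p = 0.0443). Neither was called without control replicate 3 or PM2.5 replicate 1 (adjusted p of 0.0564 and 0.0688 for SOS1), and SOS2 was not called without control replicate 2, PM2.5 replicate 2 or PM2.5 replicate 3 or without further scaling of the FPKM (adjusted p of 0.0586 to 0.148 for SOS2 without a library). Without control replicate 3 or PM2.5 replicate 1, or with no filter, 1 adaptor gene rose and 0 fell. At the output end of the pathway, 11 feedback inhibitor and FLRT genes were tested. FLRT1 passed the filter through exposed libraries alone and FLRT2 through control libraries alone, where each is high, and both are left out of the counts. Of the other 9 genes, 7 rose and 1 fell (median 0.75), and all 3 ETS factor genes rose (median 1.64). DUSP6, the phosphatase that switches off ERK, had 50.1 ± 0.0586 FPKM after PM2.5 and 11 ± 0.887 FPKM in control (2.1 ± 0.09, adjusted p = 1.03e-06), SPRED3 rose by 1.52 ± 0.10, ETV4 by 1.85 ± 0.10 and ETV5 by 1.64 ± 0.10 (adjusted p of 4.19e-06 to 8.89e-06). The gene that fell, FLRT3, is no inhibitor: it encodes a membrane protein that binds FGF receptors and in Xenopus promotes their signalling. It had 2.03 ± 0.301 FPKM after PM2.5 and 10.3 ± 1.02 FPKM in control (-2.14 ± 0.14, adjusted p = 8.47e-06).

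Of 6 tested genes for RNA-binding proteins that steer the choice between the FGFR2 exons, 1 rose and 2 fell (median 0.03). PTBP1, a repressor of the epithelial exon, rose by 0.35 ± 0.10 (adjusted p = 0.0217), a call lost without control replicate 3 or any single PM2.5 library (adjusted p of 0.0504 to 0.0805). TIA1, which favours that exon, fell by 0.84 ± 0.09 on the log2 scale (adjusted p = 0.000122), and RBFOX2 fell by 0.58 ± 0.07 (adjusted p = 0.000396). Without further scaling 3 of the 6 rose and 2 fell. ESRP2, another of the 6, was not called, with 5.45 ± 0.191 FPKM after PM2.5 and 4.42 ± 0.265 FPKM in control (0.24 ± 0.09, adjusted p = 0.0742). All its PM2.5 libraries lay above its control libraries. ESRP1, at most 0.285 FPKM, was not tested. Which form of FGFR2 was made was not measured. Of 4 tested intracellular partners of FGF1 and FGF2, 1 rose and 2 fell (median -0.16). LRRC59, needed for entry of FGF1 into the nucleus, rose by 0.37 ± 0.08 (adjusted p = 0.00866). S100A13, which takes part in FGF1 release, changed by -0.70 ± 0.20 (adjusted p = 0.0233), and FIBP, an FGF1-binding protein, by -0.43 ± 0.12 (adjusted p = 0.0192). The call for S100A13 was lost without control replicate 1 or 2 or any single PM2.5 library, and that for FIBP without control replicate 1 or PM2.5 replicate 2, when 1 partner rose and 0 fell, as with no filter on low values.

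**Figure D4:**
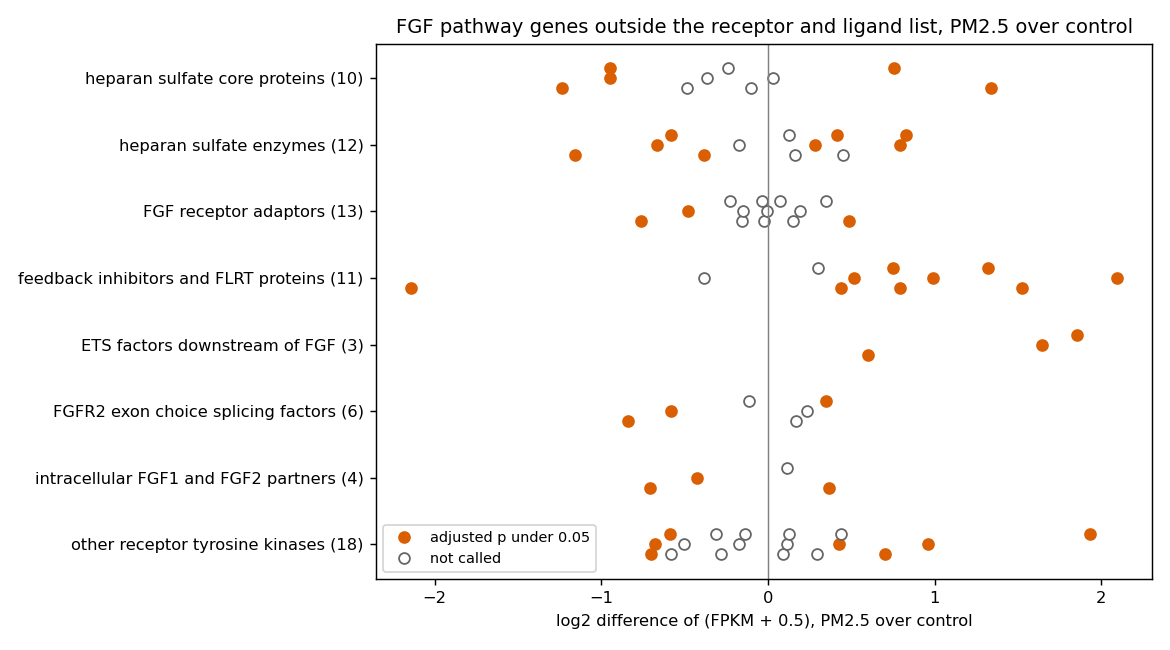
Log2 difference of (FPKM + 0.5), PM2.5 over control, for the tested genes of each list, with the number of tested genes in brackets. Filled points passed an adjusted p under 0.05 and open points did not. FLRT1 and FLRT2 in the fourth row and EPHA5 in the last row passed the filter in only 1 of the groups compared. All 3 ETS factor genes lie to the right of 0, and the feedback inhibitor and FLRT genes spread between FLRT3 at -2.14 and DUSP6 at 2.1.

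Among 18 other receptor tyrosine kinase genes tested, EPHA5 passed the filter through exposed libraries alone and is left out of the count. Of the other 17, 3 rose and 3 fell, and the median was -0.14. EPHB1, an ephrin receptor, had 12.1 ± 0.273 FPKM after PM2.5 and 2.73 ± 0.257 FPKM in control (log2 difference 1.93 ± 0.11, limma adjusted p = 4.72e-06), and MERTK, an engulfment receptor, rose by 0.96 ± 0.18 (limma adjusted p = 0.00318). ROR1, a receptor for a WNT ligand, changed by -0.70 ± 0.14 (limma adjusted p = 0.00439). IGF1R, the receptor for insulin-like growth factor, changed by -0.68 ± 0.20 (limma adjusted p = 0.0289), a call lost without any single control or PM2.5 library (adjusted p of 0.0506 to 0.0866). Over all 18 genes, with EPHA5 put back, the counts were 4 higher and 3 lower. They were 2 and 2 without PM2.5 replicate 2, and 6 and 6 without lactoferrin plus PM2.5 replicate 1. Counts for these settings are not given over the 17 genes alone. For lactoferrin plus PM2.5 over PM2.5, 0 genes of any of these lists passed the test (limma), while 12.2% of all tested genes had an unadjusted p under 0.05. That number was 3 of 10 heparan sulfate core protein genes, 2 of 12 heparan sulfate enzyme genes and 1 of 2 Klotho and FGF-binding genes. It was 2 of 11 feedback inhibitor and FLRT genes and 5 of 18 other receptor kinase genes. FLRT1, FLRT2 and EPHA5 were not among these. It was 0 in each of the remaining lists of pathway genes. Lactoferrin plus PM2.5 replicate 1 was the lowest library of its group in every gene so counted, and the counts include that library. All of these genes but DUSP6 were lower after lactoferrin plus PM2.5. DUSP6 was higher (0.21 ± 0.09, limma adjusted p = 0.405), a difference that the low replicate 1 makes smaller.

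The genes whose pattern over the 9 libraries was most like that of FGFR2 were SMAD9 (Pearson r = 0.998 on the log2 scale), MARCKS (0.997), HEXIM1 (0.997), PRSS23 (0.997) and NCKAP5 (0.996). SMAD9, a transcription factor of bone morphogenetic protein signalling, had 0.150 ± 0.0384 FPKM after lactoferrin plus PM2.5, 0.188 ± 0.0413 FPKM after PM2.5 and 2.30 ± 0.183 FPKM in control (SD, n = 3 each). NCKAP5 had 0.279 ± 0.0595, 0.357 ± 0.106 and 9.22 ± 1.64 FPKM in the same groups. MARCKS, an actin-binding protein gene, differed far less in size, with 44.0 ± 2.02, 48.2 ± 1.52 and 92.4 ± 3.63 FPKM. SMAD9 and NCKAP5, like FGFR2, passed the filter only through their control libraries, where they are high. Their likeness to FGFR2 is therefore a description with no test. Of 14401 genes, 485 had an r above 0.95. The libraries fall into a control and an exposed cluster, all genes come from the same libraries, and r was not computed within the clusters.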

How the data were processed

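RNA of 9 HK-2 libraries (3 groups of 3, taken from the labels) was used as the authors' deposited FPKM, 1 file per sample. Per the submitters' processing notes, the tools included HISAT2 2.1.0, Trimmomatic 0.38, DESeq2 1.22.1 and featureCounts 1.6.0, with GRCh38. Their order, the annotation and the strand setting were not given in the sources used here. The unit was read from the values: with GENCODE v29 union exon lengths, 85.9% to 87.2% of low values (up to 200 reads) were whole multiples of 1 step within 0.05, which gave the depth and the rebuilt reads. For FGF1, FGFR4 and FGFRL1 the rebuilt reads were not whole, so their annotated lengths may differ.

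A scaling factor per library (trimmed mean of M values, 0.938 to 1.03) was divided out. Then log2(FPKM + 0.5) was fitted with limma (version 3.58.1, in R 4.3.3), a mean per group, trend and robust options, and Benjamini-Hochberg adjustment over 14454 genes with at least 0.5 FPKM in at least 3 libraries. A call is an adjusted p under 0.05. The fit was also run on simulated data with a fixed spread between replicates and no outlying library, unlike these data. Its outcome is not given here and no result rests on it. Per list the text names the 2 called genes per direction with the largest log2 difference for PM2.5 over control, and the 5 genes most like FGFR2. DPP4, PAX8, LUM, DCN, COL1A1, FRS2, KL, FGF7, FGF10, FLRT1, FLRT2, ESRP1, ESRP2 and EPHA5 were named outside this rule, after their values were seen. The members and the lists were chosen with earlier results of these data known. Alternatives covered pseudocounts, filters, scaling, limma-voom, a replicate block, only the 6 libraries compared, and the removal of single libraries. Plots used Python 3.11.15 and matplotlib 3.10.9.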

Additional observations from a re-analysis of the deposited data

How the results depend on the processing

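Over the alternatives, the FGFR2 difference for PM2.5 over control was -3.50 with a pseudocount of 0.1, -2.21 with a pseudocount of 1 and -3.79 by limma-voom, and -2.75 to -2.70 when single libraries were left out. Leaving out a control library removes FGFR2 under the filter of 3 libraries, so a filter in 2 libraries was added there after seeing the data. It gave -2.81, -2.71 and -2.70. No value for FGFR2 could be had from the 6 libraries of lactoferrin plus PM2.5 over PM2.5 alone, where it fails the filter. For that contrast the number of genes called was 7, against 4 with only the 6 libraries compared, 17 by limma-voom, 0 to 7 when single libraries were left out, and 4 with the added filter without control replicate 1 or 2. The estimate turned sign without lactoferrin plus PM2.5 replicate 1 for FGFR3 (0.00), FGFR4 (0.05) and FGF5 (0.02), and for FGF5 with upper-quartile scaling (0.00), without PM2.5 replicate 3 (0.03) and without lactoferrin plus PM2.5 replicate 2 (0.00). When single libraries were left out these estimates ranged from -0.27 to 0.00 for FGFR3, -0.15 to 0.05 for FGFR4 and -0.08 to 0.03 for FGF5. The other 136 values of that contrast kept direction and call. By rebuilt reads in place of FPKM, which weighs longer genes more, the receptor shares after lactoferrin plus PM2.5, after PM2.5 and in control were 81.2%, 83.7% and 73.0% for FGFR1, 0.908%, 0.960% and 12.3% for FGFR2, 2.25%, 2.17% and 5.21% for FGFR3, and 15.6%, 13.2% and 9.48% for FGFR4. Of the recomputed calls for named pathway genes, 502 held and 65 were lost. With the replicate number as a block, 5679 genes were called for PM2.5 over control (5075 without), 13 for lactoferrin plus PM2.5 over PM2.5 (7 without) and 6004 for lactoferrin plus PM2.5 over control (5531 without). The block raised the count of other receptor kinases for PM2.5 over control to 6 higher and 5 lower of 18, EPHA5 included in the 18. Same-numbered libraries correlated by -0.0684 to 0.179 in their deviations from group means, and the labels do not say that the numbers mark a shared culture, so this is no pairing by design. Depth limits FGF1 and FGFR2 in exposed cells, where FGFR2 had 32 to 57 reads.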
